A study of Mus musculus with 20 samples.

Results

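Liver was compared with white adipose tissue (WAT) of obese wild type mice, WT(HFD), to describe the genes and functions that set both tissues apart under the same diet. The 10 arrays labelled wild type, 5 of liver and 5 of WAT, were taken out of 20 arrays in the series; the other 10 hold the same tissues of mice that lack CD44 (CD44KO). The 10 wild type arrays carry RNA of C57BL/6 males aged 7 months, all fed a high-fat diet (HFD) with 35% fat for 21 weeks, so that no lean tissue entered the comparison and obesity is shared by both groups. The labels name neither the WAT depot nor the mouse behind each array, and whole tissue was extracted.

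Hepatocytes make up most of the liver. They secrete the proteins of the plasma, take up and release glucose, synthesise bile acids, urea and ketone bodies, and clear foreign compounds, alongside Kupffer cells (the resident macrophages), a fenestrated sinusoidal endothelium and vitamin A storing stellate cells. White adipocytes store triglyceride in a single lipid droplet coated by perilipins, release fatty acids on adrenergic stimulation and secrete hormones such as leptin and adiponectin, and they lie among capillaries, fibroblast-like progenitors and, in obesity, many macrophages. In obesity the liver stores lipid droplets as well.

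Each array (Agilent, 1 colour) reports the brightness of 41174 probes, given here as log2 signal minus the 75th percentile of the same array. A level of 0 thus equals that percentile, and levels of different probes cannot be ranked against each other. Differences are liver minus WAT on the log2 scale with their standard error (SE), 5 arrays per tissue, and after a fold the number in parentheses is that difference ± SE. A gene was called higher in a tissue when limma gave an adjusted p under 0.05 and at least a 2-fold difference. The 218 genes named below that were called had an adjusted p of at most 0.0329, and for 215 of them no array of one tissue overlapped the other, the exceptions being Col13a1, Hba-a1 and Spp1. A probe whose signal was not well above background on any array of a tissue gives only a lower bound of the fold. Such a probe entered the test through the other tissue alone. Its adjusted p rests on dim levels, which are estimates, in that tissue and does not measure the strength of the difference. Of 15637 genes tested, liver lay above WAT without overlap for 32.7% and below it for 31%. In bulk tissue, fewer cells of a type and less RNA per cell cannot be told apart.

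The arrays separated by tissue in their correlations over the tested probes. Correlations between arrays were 0.98 to 0.989 within liver, 0.962 to 0.986 within WAT without WAT replicate 1, and 0.698 to 0.761 between tissues. A probe well above background in only one of the tissues could enter these correlations. The part of this filter in the lower values between tissues was not tested. WAT replicate 1 stood apart, with correlations of 0.861 to 0.878 to the other WAT arrays and 89.5% of its spots well above background against 63.4 to 69.5% on the other WAT arrays and 57.5 to 61.2% on the liver arrays, so the main counts are given with and without it. The 75th percentile of the signal was 433 to 575 on liver arrays and 1649 to 2708 on WAT arrays. Liver and WAT arrays were hybridised on different slides and scanned on different days and scanners, so tissue and these batches cannot be told apart. Whether equal replicate numbers pair liver and WAT of the same mouse is not given by the labels. The 100 brightest spots carried 24.8 ± 0.68% of the liver signal and 14.7 ± 1.03% of the WAT signal (SD, n = 5 each), without overlap (two-sided exact permutation test over 252 relabellings, p = 0.0079, which is the lowest value they can give).

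The labels held against their defining markers. Upstream sequences of 3 liver and 3 fat marker genes are shown first because these genes define the tissues in what follows. Each is the 250 bases before the annotated start of the gene in RefSeq (mouse build GRCm38.p6), 5′ to 3′ on the strand of the gene, with capitals marking matches to 4 short motifs searched on both strands. These were GTTAAT of the factor HNF1, TTGCNNAA of the C/EBP factors, TATAAA of the core promoter element, and GGGCGG of the Sp1 element called the GC box. The windows are chr5:90460620-90460869 (+) for Alb, chr9:46228380-46228629 (+) for Apoa1, chr6:71199629-71199878 (+) for Fabp1, chr16:23146286-23146535 (+) for Adipoq, chr6:29059971-29060220 (+) for Lep and chr7:79732777-79733026 (-) for Plin1.
Alb: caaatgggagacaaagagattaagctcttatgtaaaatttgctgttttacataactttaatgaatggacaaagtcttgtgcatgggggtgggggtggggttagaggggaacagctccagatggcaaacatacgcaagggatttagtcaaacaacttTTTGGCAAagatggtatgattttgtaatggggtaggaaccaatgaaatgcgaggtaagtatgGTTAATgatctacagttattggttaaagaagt
Apoa1: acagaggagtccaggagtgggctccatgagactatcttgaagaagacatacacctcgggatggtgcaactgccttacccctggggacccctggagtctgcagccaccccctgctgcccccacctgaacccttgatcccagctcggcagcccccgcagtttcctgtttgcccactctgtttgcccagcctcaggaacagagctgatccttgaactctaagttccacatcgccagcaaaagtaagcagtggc
Fabp1: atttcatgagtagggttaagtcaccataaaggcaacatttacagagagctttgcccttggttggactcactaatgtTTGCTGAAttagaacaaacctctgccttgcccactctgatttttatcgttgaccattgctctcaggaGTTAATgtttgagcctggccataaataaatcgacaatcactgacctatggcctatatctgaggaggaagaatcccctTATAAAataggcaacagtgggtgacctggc
Adipoq: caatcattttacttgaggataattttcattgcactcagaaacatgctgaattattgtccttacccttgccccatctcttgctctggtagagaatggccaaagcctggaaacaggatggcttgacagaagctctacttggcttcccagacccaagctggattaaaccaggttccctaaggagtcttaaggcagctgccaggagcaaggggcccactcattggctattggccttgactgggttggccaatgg
Lep: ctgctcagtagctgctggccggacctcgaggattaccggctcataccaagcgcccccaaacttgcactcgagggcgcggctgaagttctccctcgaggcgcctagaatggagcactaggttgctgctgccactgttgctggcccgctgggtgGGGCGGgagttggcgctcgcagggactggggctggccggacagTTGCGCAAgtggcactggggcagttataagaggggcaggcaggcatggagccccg
Plin1: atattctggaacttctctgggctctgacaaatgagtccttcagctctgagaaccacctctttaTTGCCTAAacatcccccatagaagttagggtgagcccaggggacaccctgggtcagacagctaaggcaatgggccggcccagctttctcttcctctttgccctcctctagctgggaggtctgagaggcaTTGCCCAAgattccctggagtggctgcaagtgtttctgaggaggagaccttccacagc

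Alb held a C/EBP match 94 to 87 bases upstream and GTTAAT 32 to 27 bases upstream. Fabp1 held a C/EBP match 174 to 167 bases upstream, GTTAAT at 107 to 102 and TATAAA at 30 to 25. In the fat genes, Lep held a GC box at 98 to 93 and a C/EBP match at 55 to 48, and Plin1 held C/EBP matches at 187 to 180 and 58 to 51, whereas the windows of Apoa1 and Adipoq held none of these letters. Among all tested genes with a window, GTTAAT occurred in 6.98% of 4270 windows of genes called higher in liver, in 3.97% of 3826 windows of genes called higher in WAT and in 4.10% of 7577 windows of the rest. TTGCNNAA occurred in 8.92%, 8.89% and 7.27%, TATAAA in 10.6%, 8.83% and 6.99%, and GGGCGG in 46.4%, 52.6% and 54.8% of the same windows. Over all 32851 windows the shares were 6.43% for GTTAAT, 9.56% for TTGCNNAA, 12.4% for TATAAA and 32.7% for GGGCGG. Of 15637 tested genes 12386 had a window, some of them several, so the shares for called genes and the rest are of 15673 windows. They are not shares of genes. A match is a run of letters, and these shares were given no test.

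Alb, the main protein of the plasma, had levels of 9.99, 10.26, 10.30, 10.37 and 10.34 on liver arrays 1 to 5 and of 2.90, 4.66, 0.61, 3.95 and 1.12 on WAT arrays 1 to 5. Liver arrays lay within a narrow band and above every WAT array, while WAT arrays 1, 2 and 4 lay well above WAT arrays 3 and 5. Its difference was 7.61 ± 0.72 (95% interval 5.99 to 9.23, adjusted p = 7e-06). Apoa1, the main apolipoprotein of high density lipoprotein, had levels of 8.08, 8.24, 8.52, 8.36 and 8.37 in liver and of -1.08, -0.08, -4.10, -1.18 and -4.31 in WAT, with the same WAT arrays high and low, and was 1416-fold higher in liver (log2 10.47 ± 0.79).

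Adipoq, which encodes the adipocyte hormone adiponectin, had levels of 5.88, 6.92, 6.62, 6.61 and 6.82 in WAT and of -7.17, -4.62, -6.27, -6.79 and -6.01 in liver, where only replicate 2 was well above background. Its difference of -12.74 ± 0.44 went with no overlap between the tissues, with the other 4 liver arrays not well above background. Lep, which encodes leptin, had levels of 3.58, 4.84, 4.87, 4.76 and 4.62 in WAT, with replicate 1 lowest, and was at least 697-fold higher in WAT (adjusted p = 2.4e-09, not well above background on any liver array). Plin1, the perilipin that coats the adipocyte lipid droplet, differed by -10.59 ± 0.78 and was well above background on 1 of 5 liver arrays, and its liver levels of -6.90, -2.15, -4.97, -5.69 and -6.29 were highest in the same replicate 2 in which Adipoq was measured.

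**Figure D1:**
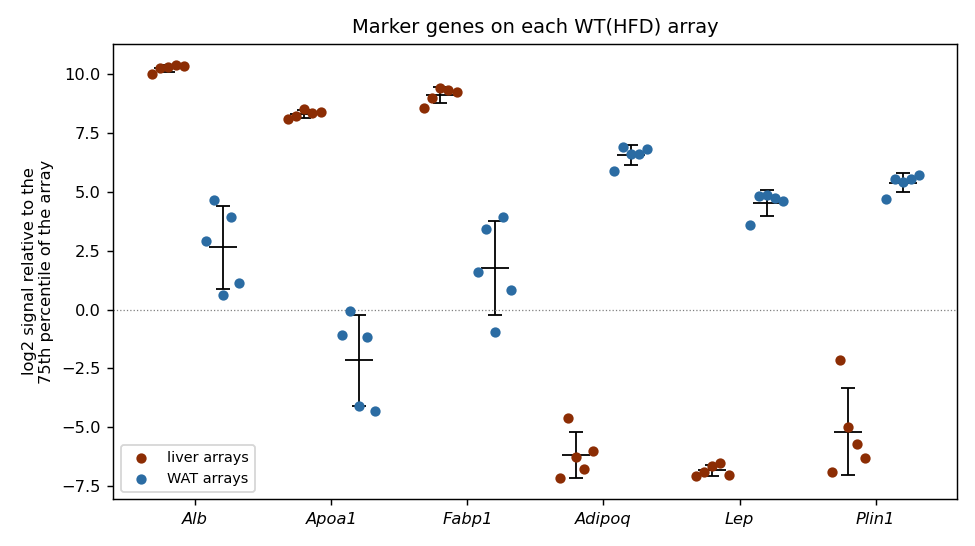
Levels of 3 liver genes (Alb, Apoa1, Fabp1) and 3 fat genes (Adipoq, Lep, Plin1) on each WT(HFD) array, as log2 signal relative to the 75th percentile of the array; points are arrays in replicate order, the horizontal mark is the mean and the bar the SD (n = 5 per tissue). All liver arrays lie above all WAT arrays for the liver genes and below them for the fat genes, and the liver genes spread more on WAT arrays than on liver arrays (Alb SD 1.75 against 0.15).

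A probe was tested when 3 or more of the 5 arrays of either tissue had it well above background, and 28365 probes met this. Of these, 6974 (24.6%) were higher in liver and 6928 (24.4%) in WAT. Without WAT replicate 1 these counts were 8545 and 6769. With reference genes instead of the percentile as scale, every difference fell by 0.66, the counts became 4076 and 10610, and the share of called probes that were higher in liver went from 50.2% to 27.8%; with normexp background correction they became 7249 and 3761, a share of 65.8%. Counted by gene, with the brightest probe standing for each, 4279 (27.4%) of 15637 genes were higher in liver, 3845 (24.6%) in WAT and 7513 in neither, and the median difference was 0.13. At least a 4-fold difference was seen for 2315 genes in liver and 2214 in WAT, and at least 16-fold for 823 and 538. The lowest level well above background was -5.34 to -4.55 on liver arrays. It was -4.60 on WAT replicate 1 and -6.58 to -5.91 on WAT replicates 2 to 5. Levels could thus be read lower on most WAT arrays, which left more room for large folds toward liver. The part of this in the counts was not tested. The probes of a gene disagreed in direction for 170 of 6552 genes with several tested probes.

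**Figure D2:**
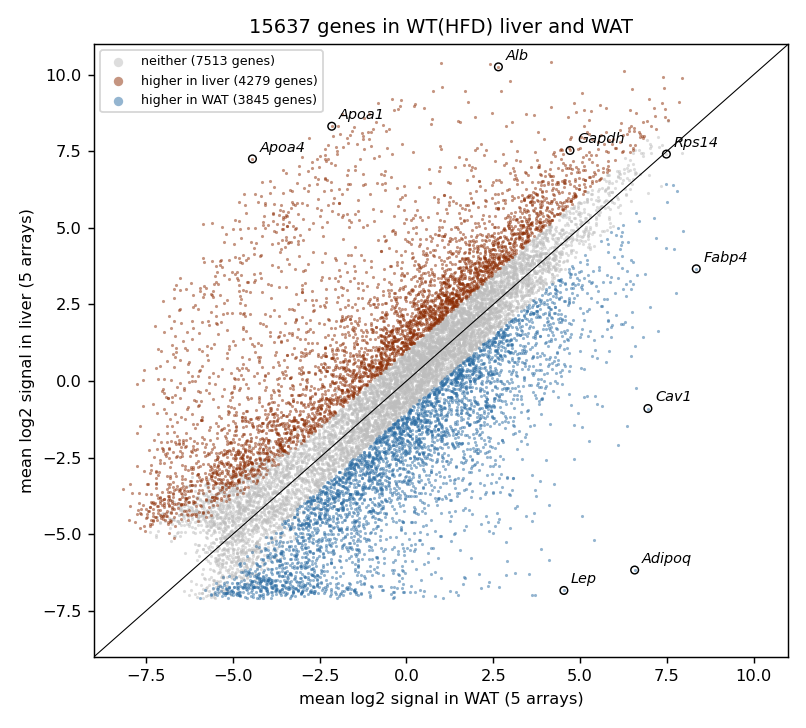
Mean log2 level of 15637 genes in WAT (x axis) and liver (y axis), relative to the 75th percentile of each array, 5 arrays per tissue; brown marks 4279 genes higher in liver, blue 3845 genes higher in WAT, grey the rest, and the line marks equal levels. Alb, Apoa1 and Apoa4 lie far above the line, Adipoq, Lep, Cav1 and Fabp4 far below it, Rps14 on it, and Gapdh above it.

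The largest differences among genes measured on all 10 arrays included secreted and metabolic proteins of the liver. Apoa4, an apolipoprotein of triglyceride-rich lipoproteins, was 3295-fold higher in liver (log2 11.69 ± 0.76). Aqp8, a water channel of the bile canaliculus, was 1718-fold higher in liver (log2 10.75 ± 0.71). Akr1c6, a hydroxysteroid dehydrogenase, was 1516-fold higher in liver (log2 10.57 ± 0.77). F12 encodes coagulation factor XII and was 1383-fold higher in liver (log2 10.43 ± 0.78). Slc27a5, the bile acid-CoA ligase that also transports fatty acids, was 1260.4-fold higher in liver (log2 10.30 ± 0.86). Mbl2, a mannose-binding lectin of the complement system, was 1254-fold higher in liver (log2 10.29 ± 0.84). Pzp, a protease inhibitor of the alpha-2-macroglobulin family, was 1224-fold higher in liver (log2 10.26 ± 0.78). Rdh7, a retinol dehydrogenase, was 1108-fold higher in liver (log2 10.11 ± 0.76), and Apof, an apolipoprotein, was 1097-fold higher in liver (log2 10.10 ± 0.83).

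In the other direction, the genes measured on all 10 arrays with the largest differences included genes known from adipocytes, endothelium and immune cells. The sizes of these folds cannot be set against the liver folds, since the lowest level well above background differed between the tissues. Apol6, a member of the apolipoprotein L family, was 289-fold higher in WAT (log2 -8.18 ± 0.21). Cav1, the coat protein of the caveolae that cover the adipocyte surface, was 231-fold higher in WAT (log2 -7.85 ± 0.22). Prkar2b, a regulatory subunit of protein kinase A abundant in fat, was 227-fold higher in WAT (log2 -7.83 ± 0.19). Phgdh, the first enzyme of serine synthesis, was 167-fold higher in WAT (log2 -7.38 ± 0.26). Ffar2, a receptor for short-chain fatty acids, was 153-fold higher in WAT (log2 -7.26 ± 0.19). Clec10a, a lectin of macrophages and dendritic cells, was 148-fold higher in WAT (log2 -7.21 ± 0.16). Sncg, which encodes gamma-synuclein, was 137-fold higher in WAT (log2 -7.09 ± 0.20), and Adam8, a metalloprotease of myeloid cells, was 115-fold higher in WAT (log2 -6.85 ± 0.40). Mcpt4, a mast cell protease, was 103-fold higher in WAT (log2 -6.69 ± 0.24).

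Genes measured on all arrays of a tissue and on none of the other numbered 742 for WAT and 38 for liver. WAT arrays were brighter than liver arrays (75th percentile 1649 to 2708 against 433 to 575), so a dim gene could pass the background flag more readily in WAT. These counts are thus no measure of tissue specificity, and the part of brightness in them was not tested. Lctl, a klotho-related glycosidase, was at least 392-fold higher in WAT (adjusted p = 2.9e-09, not well above background on any liver array). Slc7a10, a serine and alanine carrier that marks white adipocytes, was at least 365-fold higher in WAT (adjusted p = 1.6e-09, not well above background on any liver array). Retnla, a resistin-like protein made by alternatively activated macrophages, was at least 218-fold higher in WAT (adjusted p = 5e-08, not well above background on any liver array). Glb1l2, Tmem182, Crtac1, Arxes1 and Arxes2 had bounds between 154.5-fold and 347-fold. On the liver side Caln1, a calcium-binding protein, was at least 109.9-fold higher in liver (adjusted p = 2.2e-06, not well above background on any WAT array), and Foxa3, a forkhead factor of hepatocytes, was at least 82.8-fold higher in liver (adjusted p = 1e-05, not well above background on any WAT array). Slc22a29, an organic anion carrier, was at least 78.4-fold higher in liver (adjusted p = 6.5e-07, not well above background on any WAT array), and Cyp2c38, a cytochrome P450, was at least 37-fold higher in liver (adjusted p = 5.6e-06, not well above background on any WAT array). Without WAT replicate 1, on which more probes passed the background flag, the probes measured in liver only rose from 90 to 531.

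The 57 gene lists described from here on held 1326 entries, of which 1309 were on the array and 1239 passed the filter on dim signals and were tested; counts refer to tested members, to be read against the 27.4% and 24.6% of all genes that were called. Genes of secreted plasma proteins were higher in liver for 19 of 19 tested members with a median difference of 8.58. Gc, the vitamin D binding protein, was 897-fold higher in liver (log2 9.81 ± 0.74). Serpina6, which carries corticosteroids in the blood, was 1417-fold higher in liver (log2 10.47 ± 0.80, well above background on 4 of 5 WAT arrays). Among apolipoproteins, 15 of 16 were higher in liver (median 9.05). Apob, the structural protein of very low density lipoprotein, was 1627-fold higher in liver (log2 10.67 ± 0.72, well above background on 3 of 5 WAT arrays). The exception was Apod, a lipocalin rather than a lipoprotein scaffold, which was at least 11.8-fold higher in WAT (adjusted p = 1.3e-05, not well above background on any liver array). Acute phase genes were higher in liver for 16 of 17 members (median 5.39), among them Saa2, a serum amyloid A, which was 740.3-fold higher in liver (log2 9.53 ± 0.36).

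Complement and coagulation genes were mostly higher in liver, and their shares higher in WAT were near or below the 24.6% of all genes. Of 25 complement genes, 18 were higher in liver and 6 in WAT (median 2.38). C8a, a component of the membrane attack complex, was 663-fold higher in liver (log2 9.37 ± 1.02, well above background on 3 of 5 WAT arrays). The members higher in WAT included all C1q chains, which macrophages make. C1qa was 7.5-fold higher in WAT (log2 -2.91 ± 0.27), C1qb was 4.51-fold higher in WAT (log2 -2.17 ± 0.23), and C1qc was 4.93-fold higher in WAT (log2 -2.30 ± 0.24). C7, which fibroblasts express, was at least 3.61-fold higher in WAT (adjusted p = 1.6e-05, not well above background on any liver array), a call that ended under normexp (-0.45). Of 28 coagulation genes, 20 were higher in liver and 6 in WAT (median 8.25). Fga, the fibrinogen alpha chain, was 725-fold higher in liver (log2 9.5 ± 0.81, well above background on 4 of 5 WAT arrays). Serpind1, heparin cofactor II, was 713-fold higher in liver (log2 9.48 ± 0.54). F13a1, the factor XIII subunit found in macrophages, was 103-fold higher in WAT (log2 -6.69 ± 0.27). F3, tissue factor, was 12.6-fold higher in WAT (log2 -3.66 ± 0.13). Thbd, thrombomodulin of the endothelium, was 12.2-fold higher in WAT (log2 -3.61 ± 0.22), and Plat, tissue plasminogen activator, was 12.3-fold higher in WAT (log2 -3.62 ± 0.21).

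Enzymes that clear foreign compounds were mostly higher in liver. Of 33 cytochromes P450 of families 1 to 3, 31 were higher in liver with a median difference of 7.78. Cyp2a12 was 1754-fold higher in liver (log2 10.78 ± 0.87, well above background on 3 of 5 WAT arrays). Cyp2d10 was 1001-fold higher in liver (log2 9.97 ± 0.60). The 2 members higher in WAT were Cyp1b1, an enzyme of fibroblast-like cells, which was 35.8-fold higher in WAT (log2 -5.16 ± 0.23), and Cyp2s1, which was 14.2-fold higher in WAT (log2 -3.83 ± 0.25). Of 34 genes of phase II conjugation, 31 were higher in liver (median 4.12). Ugt2b35, a glucuronosyltransferase, was 848-fold higher in liver (log2 9.73 ± 0.32, well above background on 2 of 5 WAT arrays). The member higher in WAT was Sult1e1, the estrogen sulfotransferase, which was 25.2-fold higher in WAT (log2 -4.65 ± 0.25).

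Bile acid synthesis and transport genes were higher in liver for 22 of 22 tested members (median 7.10). Abcb11, the bile salt export pump, was 828-fold higher in liver (log2 9.69 ± 0.60). Slc10a1, which takes bile acids up from the blood, was 893-fold higher in liver (log2 9.80 ± 0.73, well above background on 3 of 5 WAT arrays). For the urea cycle and amino acid breakdown the count was 37 of 38 (median 7.87). Otc, ornithine transcarbamylase of the urea cycle, was 1174-fold higher in liver (log2 10.20 ± 0.86, well above background on 4 of 5 WAT arrays). Hgd, homogentisate dioxygenase of tyrosine breakdown, was 1336-fold higher in liver (log2 10.38 ± 1.01, well above background on 3 of 5 WAT arrays). Among carriers of liver uptake, 18 of 24 were higher in liver and 4 in WAT. Slc1a5, a glutamine carrier, was 88.7-fold higher in WAT (log2 -6.47 ± 0.22). Of 18 genes of iron and haem, 14 were higher in liver and 3 in WAT. Hamp, the iron hormone hepcidin, was 356.6-fold higher in liver (log2 8.48 ± 0.84). Hmox1, haem oxygenase 1, was 2.65-fold higher in WAT (log2 -1.41 ± 0.15).

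Transcription factors followed the same division. Of 26 hepatocyte factors, 21 were higher in liver (median 5.08). Foxa2, a forkhead factor, was 744-fold higher in liver (log2 9.54 ± 0.86, well above background on 3 of 5 WAT arrays). Onecut2, a cut homeobox factor, was 628-fold higher in liver (log2 9.29 ± 0.84, well above background on 3 of 5 WAT arrays). Nr1i2, the xenobiotic receptor PXR, was 302-fold higher in liver (log2 8.24 ± 0.91, well above background on 4 of 5 WAT arrays). Of 26 adipocyte and mesenchymal factors, 16 were higher in WAT and 1 in liver (median -2.92). Meox2, a mesenchymal homeobox factor, was at least 96.9-fold higher in WAT (adjusted p = 1.4e-09, not well above background on any liver array). Ebf2, an early B cell factor of adipocyte precursors, was at least 27.8-fold higher in WAT (adjusted p = 6.2e-09, not well above background on any liver array). Ebf1, another of that family, was at least 18.7-fold higher in WAT (adjusted p = 5.4e-09, not well above background on any liver array). The member higher in liver was Klf15, a Krüppel-like factor of fasting metabolism that adipocytes also use, which was 8.34-fold higher in liver (log2 3.06 ± 0.34).

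Pparg, the master regulator of adipocyte differentiation, was not called. Its levels were 2.96, 3.62, 3.45, 3.67 and 3.70 in WAT and 2.92, 2.85, 3.01, 2.45 and 2.83 in liver, which overlap, and the difference was -0.67 ± 0.17 (95% interval -1.05 to -0.29, adjusted p = 0.0056), under the 2-fold threshold. It was called higher in WAT under quantile normalisation (-1.29) and reference-gene scaling (-1.33). Cebpa, a C/EBP factor of both hepatocytes and adipocytes, differed by 0.93 ± 0.20 (adjusted p = 0.002), also under the threshold, which it passed without WAT replicate 5.

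Tested Hox genes, which record position along the body axis, lay mostly on the WAT side. Of 39 listed, 24 were tested, 15 were higher in WAT and 1 in liver (median -2.47). A further 14 were too dim in both tissues to be tested. Dim genes could pass the filter more readily through the brighter WAT arrays, and the part of this in the count was not tested. Hoxc9 was at least 42.2-fold higher in WAT (adjusted p = 2.4e-09, not well above background on any liver array). Hoxc6 was at least 32.6-fold higher in WAT (adjusted p = 1.8e-08, not well above background on any liver array). Hoxa7 was 50.5-fold higher in WAT (log2 -5.66 ± 0.16, well above background on 2 of 5 liver arrays). The member higher in liver, Hoxc4, was 4.1-fold higher in liver (log2 2.04 ± 0.21). With normexp, which compresses dim signals, 7 Hox genes passed for WAT. Imprinted growth genes were higher in WAT for 12 of 16 members and in liver for 2. Mest, a marker of adipose expansion, was 49.7-fold higher in WAT (log2 -5.63 ± 0.24). H19, a fetal non-coding RNA, was 3.93-fold higher in liver (log2 1.97 ± 0.43), and Phlda2, a growth regulator of the placenta, was 22.2-fold higher in liver (log2 4.47 ± 0.83, well above background on 1 of 5 WAT arrays).

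In carbohydrate metabolism, 19 of 34 genes were higher in liver and 10 in WAT (median 2.38). Gckr, a regulatory protein of hepatic glucose metabolism, was 936-fold higher in liver (log2 9.87 ± 0.74). G6pc, glucose-6-phosphatase, which releases free glucose, was 457.5-fold higher in liver (log2 8.84 ± 0.48). Fbp1, fructose-bisphosphatase of gluconeogenesis, was 578-fold higher in liver (log2 9.18 ± 0.75). Pfkp, the platelet phosphofructokinase of glycolysis, was 12.2-fold higher in WAT (log2 -3.61 ± 0.13). Pfkfb3, which makes the activator of phosphofructokinase, was 16.3-fold higher in WAT (log2 -4.03 ± 0.21). Hk2, hexokinase 2, was 4.08-fold higher in WAT (log2 -2.03 ± 0.27).

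Enzymes, carriers and receptors of related function, a gene known from liver beside a gene known from other tissues, were compared as pairs. The pairs were chosen with earlier results of these data known, so their count is a description only. Of 22 such pairs, both members were tested for 20, and 15 of these were opposed, the first higher in liver and the second in WAT. Of all genes, 27.4% were higher in liver and 24.6% in WAT. Slc2a2, the hepatic glucose transporter GLUT2, was 423-fold higher in liver (log2 8.73 ± 0.24, well above background on 4 of 5 WAT arrays), and Slc2a4, the insulin-responsive GLUT4, was 25.6-fold higher in WAT (log2 -4.68 ± 0.29). Pklr, the liver pyruvate kinase, was 121-fold higher in liver (log2 6.91 ± 0.62), and Pkm, the muscle form, was 5.67-fold higher in WAT (log2 -2.50 ± 0.15). Gys2 and Gys1, the glycogen synthases, differed by 3.13 ± 0.22 and -3.20 ± 0.25 on the log2 scale, and the phosphorylases Pygl and Pygb by 3.41 ± 0.15 and -2.41 ± 0.34.

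Lipid handling held further opposed pairs. Fabp1, the fatty acid binding protein of hepatocytes, was 162-fold higher in liver (log2 7.34 ± 0.82). Fabp4, that of adipocytes and macrophages, had levels of 8.06, 8.58, 8.46, 8.61 and 8.02 in WAT and of 3.95, 4.05, 3.01, 3.76 and 3.54 in liver and was 25.7-fold higher in WAT (log2 -4.68 ± 0.22). It was well above background on every array of both tissues, with no overlap. Lipc, hepatic lipase, was 208.5-fold higher in liver (log2 7.70 ± 0.83, well above background on 2 of 5 WAT arrays), and Lpl, lipoprotein lipase, was 48.3-fold higher in WAT (log2 -5.59 ± 0.34). Slc27a1, a fatty acid transporter paired with Slc27a5, was 6.74-fold higher in WAT (log2 -2.75 ± 0.22). Scd1 and Scd2, stearoyl-CoA desaturases, differed by 2.06 ± 0.22 and -3.75 ± 0.37, and the call of Scd1 ended under quantile normalisation (0.45). Cideb, a lipid droplet protein of lipoprotein assembly, was 421-fold higher in liver (log2 8.72 ± 0.96, well above background on 3 of 5 WAT arrays), and Cidec, which fuses lipid droplets, was 3.04-fold higher in WAT (log2 -1.60 ± 0.21). Plin5, the perilipin of oxidative tissues, was 11.9-fold higher in liver (log2 3.57 ± 0.14), against Plin1 above. Aqp9 and Aqp7 carry glycerol, Aqp9 147-fold higher in liver (log2 7.2 ± 0.46) and Aqp7 22-fold higher in WAT (log2 -4.46 ± 0.44, well above background on 4 of 5 liver arrays).

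Pairs of signalling genes were opposed as well. Fgfr4 was 95.2-fold higher in liver (log2 6.57 ± 0.79) and Fgfr1 14-fold higher in WAT (log2 -3.81 ± 0.31), both receptors of fibroblast growth factors. Thrb and Thra, the thyroid hormone receptors, differed by 2.01 ± 0.18 and -1.14 ± 0.14, and the call of Thra ended under median scaling (-1.04). Grb14 and Grb10, adaptors of the insulin receptor, differed by 1.96 ± 0.24 and -2.39 ± 0.23. Adra1b, an adrenergic receptor of hepatocytes, was 41.7-fold higher in liver (log2 5.38 ± 0.13). Adrb3, the adrenergic receptor of adipocytes, was well above background on 4 of 5 WAT arrays and no liver array. It was at least 1.25-fold higher in WAT (log2 -1.11 ± 0.24, adjusted p = 0.0024), and the difference turned to 0.69 under normexp.

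The remaining 5 pairs were not opposed. Cpt1b, the muscle form of carnitine palmitoyltransferase 1, was 2.32-fold higher in liver (log2 1.22 ± 0.17), and 0.55 with reference-gene scaling, which ended its call. Cpt1a was 5.56-fold higher in liver (log2 2.47 ± 0.14). Saa3, a serum amyloid A of macrophages and adipocytes, was 6.23-fold higher in liver (log2 2.64 ± 0.25), beside Saa1, which was 78.1-fold higher in liver (log2 6.29 ± 0.23). Ppara, the receptor that drives fatty acid oxidation, was 232-fold higher in liver (log2 7.86 ± 0.21), while its partner Pparg was not called. Mat1a, methionine adenosyltransferase of hepatocytes, was 897-fold higher in liver (log2 9.81 ± 0.77), and Mat2a differed by -0.55 ± 0.15 (adjusted p = 0.0077), but was called higher in WAT under quantile normalisation (-1.55) and reference-gene scaling (-1.22). Lpin2, a phosphatidate phosphatase, was 13.8-fold higher in liver (log2 3.79 ± 0.21), and Lpin1 differed by 0.65 ± 0.37 (adjusted p = 0.15). Arg1, the arginase of the urea cycle, was 138-fold higher in liver (log2 7.11 ± 0.43), with Arg2 too dim in both tissues to be tested. Irs1 differed by 0.28 ± 0.19 (adjusted p = 0.23), and its partner was not analysed here.

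**Figure D3:**
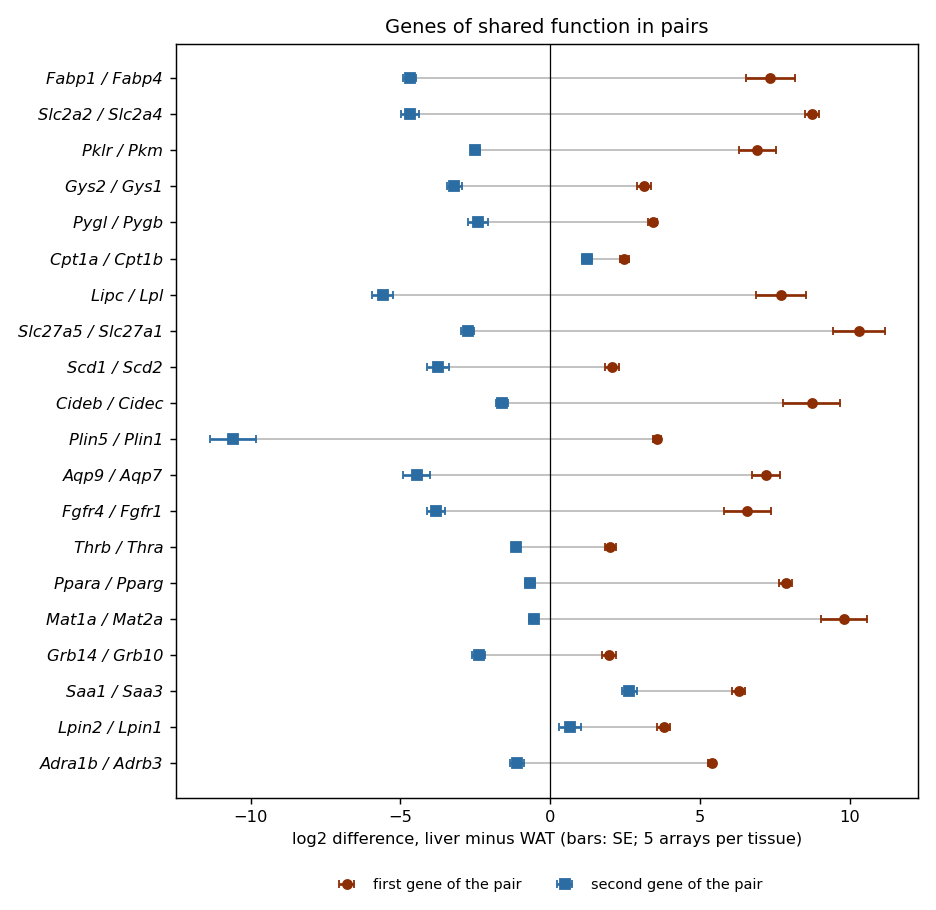
Log2 differences, liver minus WAT, of 20 gene pairs of shared function in which both members were tested (brown circles, first gene; blue squares, second gene; bars are SE, 5 arrays per tissue). In 15 pairs the members lie on opposite sides of 0 and both were called; the second members Cpt1b and Saa3 lie on the liver side, and Pparg, Mat2a and Lpin1 were not called.

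Genes of fatty acid oxidation and of fatty acid synthesis were mostly higher in liver. Fatty acid oxidation and ketogenesis had 26 of 30 members higher in liver (median 2.52). Bdh1, hydroxybutyrate dehydrogenase, was 736.6-fold higher in liver (log2 9.52 ± 0.49). Oxct1, which hepatocytes lack and which is needed to burn ketone bodies, was 27-fold higher in WAT (log2 -4.76 ± 0.20). De novo lipogenesis had 18 of 24 higher in liver and 3 in WAT (median 2.33). Fads2, a desaturase of polyunsaturated fatty acids, was 70.6-fold higher in liver (log2 6.14 ± 0.12). Elovl3, an elongase, was 79.7-fold higher in liver (log2 6.32 ± 0.57). Besides Scd2, the members higher in WAT were G6pdx, which supplies NADPH, 14.1-fold higher in WAT (log2 -3.81 ± 0.21), and Pnpla3, a lipid droplet enzyme, 7.51-fold higher in WAT (log2 -2.91 ± 0.39). Cholesterol genes were higher in liver for 25 of 29 members (median 2.50). Abcg1, the sterol exporter of macrophages, was 20.7-fold higher in WAT (log2 -4.37 ± 0.21), and Soat1, which esterifies sterol there, was 19.6-fold higher in WAT (log2 -4.29 ± 0.20).

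Genes of fat storage did not lie on the WAT side as a whole. Triglyceride synthesis had 9 of 19 members higher in liver and 3 in WAT (median 0.95, and 0.28 with reference-gene scaling). Gpam, the first acyltransferase of the pathway, was 10.6-fold higher in liver (log2 3.41 ± 0.21). Mogat2, a monoacylglycerol acyltransferase, was 8.81-fold higher in WAT (log2 -3.14 ± 0.28). Lipid droplet and lipolysis genes had 15 of 30 higher in WAT and 8 in liver (median -0.87). Cidea, a droplet protein first known from brown fat, had levels of 5.33, 5.89, 6.21, 6.00 and 5.93 in liver and of 0.40, 1.22, -0.56, -0.63 and 0.86 in WAT and was 49.1-fold higher in liver (log2 5.62 ± 0.37). Every liver array lay above every WAT array. Plin2, the perilipin of droplets outside adipocytes, was 2.83-fold higher in liver (log2 1.5 ± 0.18), a direction that turned to -0.30 under quantile normalisation. Cavin1, which builds caveolae together with Cav1, was 29.9-fold higher in WAT (log2 -4.90 ± 0.18). Fatty acid uptake and binding had 12 of 25 higher in liver and 7 in WAT, with a median of 0.37 that turned to -0.29 with reference-gene scaling and -0.34 under quantile normalisation. Vldlr, a receptor for triglyceride-rich lipoproteins, was 10.1-fold higher in WAT (log2 -3.34 ± 0.18).

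Adipocyte identity genes were higher in WAT for 16 of 20 members (median -4.57). Retn, the adipocyte hormone resistin, was 281-fold higher in WAT (log2 -8.13 ± 0.33, well above background on 1 of 5 liver arrays). The member higher in liver was Car3, a carbonic anhydrase abundant in both cell types. Its levels were 7.76, 8.10, 8.38, 8.43 and 8.17 in liver and 5.6, 6.77, 6.56, 6.42 and 6.76 in WAT, 3.36-fold higher in liver (log2 1.75 ± 0.24) without overlap, and the difference was 0.09 under quantile normalisation, which ended the call. Of 16 adipokine genes, 9 were higher in WAT and 4 in liver (median -1.64). Sfrp5, a secreted Wnt antagonist, was 9.85-fold higher in WAT (log2 -3.30 ± 0.22). Of the members higher in liver, Rbp4, the retinol carrier of the plasma, was 20.2-fold higher in liver (log2 4.33 ± 0.22). Agt, angiotensinogen, was 38.6-fold higher in liver (log2 5.27 ± 0.24). Rarres2, which encodes chemerin, was 5.4-fold higher in liver (log2 2.43 ± 0.22), and 0.87 under quantile normalisation, where its call ended. Il6, a cytokine, was 9.81-fold higher in liver (log2 3.29 ± 0.46, well above background on 2 of 5 WAT arrays).

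Hormone receptors were split, 14 of 35 higher in liver and 11 in WAT (median 0.75), with 11 and 13 under reference-gene scaling (median 0.08). Gcgr, the glucagon receptor, was 378-fold higher in liver (log2 8.56 ± 0.36). Ptger3, a prostaglandin E receptor that restrains lipolysis, was at least 94.1-fold higher in WAT (adjusted p = 1.5e-08, not well above background on any liver array). Npr3, the clearance receptor for natriuretic peptides, was 97.4-fold higher in WAT (log2 -6.61 ± 0.27). Tshr, the thyrotropin receptor, was 48.4-fold higher in WAT (log2 -5.6 ± 0.76, well above background on 2 of 5 liver arrays). Gipr, the receptor of the incretin GIP, was at least 7.24-fold higher in WAT (adjusted p = 1.1e-06, not well above background on any liver array). In insulin signalling 5 of 24 genes were higher in liver and 8 in WAT (median -0.65), with 2 and 12 under reference-gene scaling. Insr, the insulin receptor, was 2.64-fold higher in liver (log2 1.40 ± 0.19), and 0.74 with reference-gene scaling, which ended the call. Socs3, an inhibitor of cytokine and insulin signalling, was 2.46-fold higher in WAT (log2 -1.30 ± 0.22), a call that ended under median scaling (-1.20).

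Respiratory chain genes were higher in liver for 45 of 49 members (median 1.99). The count was 34 under reference-gene scaling (median 1.325), and the median was 0.89 under quantile normalisation. Cyc1, cytochrome c1, was 7.38-fold higher in liver (log2 2.88 ± 0.15). The 2 members higher in WAT were the muscle and brown fat isoforms Cox8b, 22.4-fold higher in WAT (log2 -4.48 ± 0.24, well above background on 4 of 5 liver arrays), and Cox6a2, 5.45-fold higher in WAT (log2 -2.45 ± 0.22). Of 17 thermogenic genes, 9 were higher in WAT and 6 in liver (median -2.62, and -0.02 under normexp). Ucp1, the uncoupling protein of brown and beige fat, was dim in WAT, at levels of -2.24, -2.62, -4.39, -4.15 and -1.64, and at least 3.75-fold higher in WAT (adjusted p = 6.9e-05, not well above background on any liver array), a call that ended under normexp (-0.77). Ppargc1a, a coactivator of mitochondrial genes, was 6.58-fold higher in liver (log2 2.72 ± 0.26). Clock genes were higher in liver for 11 of 19 and in WAT for 4 (median 1.08), with 7 and 6 under reference-gene scaling. Dbp, an output factor of the clock, was 10.9-fold higher in liver (log2 3.44 ± 0.29). Arntl and Clock, the positive arm of the clock, differed by -1.29 ± 0.24 and -1.22 ± 0.14, both higher in WAT, and the call of Clock ended under median scaling (-1.12). The time of day of tissue collection is not given in the sources used here.

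Of the 57 lists, the matrix list held the most members higher in WAT by count. By share the pan-macrophage list came first, at 20 of 20. Of 47 matrix and remodelling genes, 40 were higher in WAT and 2 in liver (median -2.94). Mfap5, a microfibril protein, was at least 93.8-fold higher in WAT (adjusted p = 5.4e-08, not well above background on any liver array). Mmp3, stromelysin, was 104-fold higher in WAT (log2 -6.69 ± 0.51, well above background on 3 of 5 liver arrays). Lox, which crosslinks collagen, was 88.4-fold higher in WAT (log2 -6.47 ± 0.56, well above background on 1 of 5 liver arrays). The members higher in liver were Fn1, fibronectin, which hepatocytes secrete into plasma, 3.29-fold higher in liver (log2 1.72 ± 0.22), and Mmp15, a membrane metalloprotease, 9.67-fold higher in liver (log2 3.27 ± 0.16). Of 27 collagen genes, 19 were higher in WAT and 4 in liver (median -2.82). Col6a1, a chain of the adipose collagen VI, was 22.2-fold higher in WAT (log2 -4.47 ± 0.28), and Col6a2, another, was 25.5-fold higher in WAT (log2 -4.67 ± 0.27). Col18a1, whose fragment is endostatin, was 8.67-fold higher in liver (log2 3.12 ± 0.16). Col27a1, a fibrillar collagen, was 4.26-fold higher in liver (log2 2.09 ± 0.18), and Col13a1, a membrane collagen, was 7.6-fold higher in liver (log2 2.93 ± 0.80). The brightest probe of Col4a6 was 3.07-fold higher in liver (log2 1.62 ± 0.29), a call that ended under reference-gene scaling (0.95), against other probes of the gene that were higher in WAT.

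Macrophage genes were higher in obese WAT than in obese liver. Of 20 tested pan-macrophage genes, 20 were higher in WAT (median -3.05). Adgre1, which encodes F4/80, had levels of 6.17, 6.44, 6.19, 6.61 and 6.09 in WAT and of 2.31, 2.22, 0.78, 2.15 and 2.19 in liver and was 20.6-fold higher in WAT (log2 -4.37 ± 0.29). The WAT arrays lay within a narrow band above every liver array, and liver replicate 3 was the lowest. Cd68, a lysosomal macrophage protein, was 17.1-fold higher in WAT (log2 -4.10 ± 0.29). Itgam, which encodes CD11b, was 64.9-fold higher in WAT (log2 -6.02 ± 0.29, well above background on 2 of 5 liver arrays). Genes of lipid-associated macrophages, the cells that surround dying adipocytes, were higher in WAT for 13 of 20. Mmp12, macrophage elastase, had levels of 4.17, 3.85, 3.95, 3.44 and 2.99 in WAT and of -2.27, -2.84, -6.23, -5.64 and -4.59 in liver and was 255-fold higher in WAT (log2 -7.99 ± 0.73, well above background on 3 of 5 liver arrays). Gpnmb, a lysosomal glycoprotein, was 94-fold higher in WAT (log2 -6.55 ± 0.63). Ctsk, cathepsin K, was 193-fold higher in WAT (log2 -7.59 ± 0.39, well above background on 4 of 5 liver arrays). The 3 members higher in liver were Apoe, Plin2 (given above with the scaling under which it turned) and Spp1. Apoe, an apolipoprotein of hepatocytes and macrophages, was 5.73-fold higher in liver (log2 2.52 ± 0.15), and 0.43 under quantile normalisation, which ended the call. Spp1, which encodes osteopontin, was 2.37-fold higher in liver (log2 1.25 ± 0.45), with overlapping arrays, and lost its call under quantile normalisation (0.33), with reference-gene scaling (0.58) and without most single arrays.

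Kupffer cell genes lay mostly on the liver side, 7 of 13 higher there and 2 in WAT (median 1.76). Clec4f, a lectin restricted to Kupffer cells, had levels of 3.59, 3.70, 2.34, 4.30 and 3.76 in liver and of 0.54, -3.84, -5.91, -4.54 and -7.32 in WAT and was 215-fold higher in liver (log2 7.75 ± 1.25, well above background on 4 of 5 WAT arrays). The WAT arrays spread over several log2 units below all liver arrays, with WAT replicate 1 highest, and liver replicate 3 was the lowest liver array. Cd5l, a secreted macrophage protein, was 20.1-fold higher in liver (log2 4.33 ± 0.66). Folr2, a folate receptor that resident macrophages of many tissues carry, was 17.1-fold higher in WAT (log2 -4.09 ± 0.42). Marco, Timd4 and Vsig4, named here after their values were seen, did not pass, with differences of 0.46 ± 0.71, 0.66 ± 0.88 and 1.31 ± 0.63 (adjusted p = 0.58, 0.52 and 0.09) and overlapping arrays. Vsig4 was called higher in liver without liver replicate 3 (1.89 on the log2 scale) and with all 20 arrays in the fit (1.31), and Timd4 under normexp (1.05).

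MHC class II presentation had 10 of 12 higher in WAT (median -2.21). Ctss, cathepsin S, was 8.65-fold higher in WAT (log2 -3.11 ± 0.21), and H2-Aa, an MHC class II chain, was 6.71-fold higher in WAT (log2 -2.75 ± 0.36). Mast cell genes were higher in WAT for 8 of 10 (median -2.43). Cpa3, mast cell carboxypeptidase, was at least 192-fold higher in WAT (adjusted p = 6.3e-09, not well above background on any liver array). T and NK cell genes had 11 of 25 higher in WAT and 1 in liver, with 4 and 1 under normexp. Il7r, the interleukin 7 receptor, was 123-fold higher in WAT (log2 -6.94 ± 0.30, well above background on 2 of 5 liver arrays). Cd3e, a chain of the T cell receptor complex, was 10.8-fold higher in liver (log2 3.44 ± 0.37). B and plasma cell genes had 5 of 10 higher in WAT, and 2 under normexp. Jchain, which joins immunoglobulin chains, was 15.5-fold higher in WAT (log2 -3.95 ± 0.90). Neutrophil genes had 1 of 6 higher in liver, S100a9, 4.76-fold higher in liver (log2 2.25 ± 0.25), and 1 in WAT, its partner S100a8, 8.56-fold higher in WAT (log2 -3.10 ± 0.52), against 2 and 2 without WAT replicate 1. The median of 0.13 for this list turned to -0.53 with reference-gene scaling.

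Of 41 chemokine and receptor genes, 19 were higher in WAT and 6 in liver (median -0.88). Ccl11, eotaxin, was at least 133-fold higher in WAT (adjusted p = 1.4e-09, not well above background on any liver array). Ccl8, a monocyte chemoattractant, was 141-fold higher in WAT (log2 -7.14 ± 0.73, well above background on 2 of 5 liver arrays). Ccl6, a macrophage chemokine, was 21.9-fold higher in WAT (log2 -4.45 ± 0.30). Cxcl12, which retains leukocytes through CXCR4, was 4.27-fold higher in liver (log2 2.09 ± 0.17). Cxcl1, a neutrophil attractant, was 4.32-fold higher in liver (log2 2.11 ± 0.43). Interferon-induced genes had 8 of 24 higher in liver, near the 27.4% of all genes, and 3 in WAT (median 0.67), with 4 and 6 under reference-gene scaling (median 0.00). Usp18, a brake on interferon signalling, was 5.36-fold higher in liver (log2 2.42 ± 0.23). Gbp2, a guanylate-binding protein, was 4.59-fold higher in WAT (log2 -2.20 ± 0.60).

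Sinusoidal endothelial genes were higher in liver for 9 of 15 (median 1.35). Clec4g, a lectin of the sinusoid, was 317-fold higher in liver (log2 8.31 ± 0.33). Stab1, a scavenger receptor shared with macrophages, was 2.21-fold higher in WAT (log2 -1.14 ± 0.22), a call that ended under median scaling (-1.04). Continuous capillary genes were higher in WAT for 14 of 19 (median -2.04). Rgcc, a cell cycle regulator of capillary cells, was 702-fold higher in WAT (log2 -9.46 ± 0.20, well above background on 2 of 5 liver arrays). Cd34, of capillaries and progenitors, was 59.7-fold higher in WAT (log2 -5.90 ± 0.23). Stellate cell genes were higher in liver for 8 of 14 (median 1.62). Lrat, which esterifies retinol for storage, was 186-fold higher in liver (log2 7.54 ± 0.85, well above background on 1 of 5 WAT arrays). Fibroblast and adipocyte progenitor genes were higher in WAT for 16 of 20 (median -3.28). Pi16, a marker of progenitor fibroblasts, was 37.9-fold higher in WAT (log2 -5.24 ± 0.21). Dpp4, a peptidase also found on hepatocytes, was 6.83-fold higher in liver (log2 2.77 ± 0.18), and Serpinf1, which encodes PEDF, was 4.17-fold higher in liver (log2 2.06 ± 0.16), the latter 0.59 under quantile normalisation, which ended the call. Mesothelial genes were higher in WAT for 11 of 14, among them Upk3b, 47-fold higher in WAT (log2 -5.56 ± 0.75, well above background on 2 of 5 liver arrays). The members higher in liver were the keratins Krt8, 156.4-fold higher in liver (log2 7.29 ± 0.55), and Krt18, 105-fold higher in liver (log2 6.71 ± 0.46), which hepatocytes also carry.

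Hyaluronan, the ligand of CD44, is made by fibroblast-like cells and stabilised by proteins from the liver. Of 15 tested genes of hyaluronan and CD44, 8 were higher in liver and 5 in WAT, with 7 and 6 under reference-gene scaling. The liver side counts Spp1 (osteopontin, another ligand of CD44), whose call was lost under several alternatives, as given above. Cd44 had levels of 3.92, 4.19, 4.56, 4.13 and 3.55 in WAT and of 0.83, 0.64, 0.11, 0.35 and 0.46 in liver and was 12.1-fold higher in WAT (log2 -3.59 ± 0.20). The arrays of both tissues did not overlap. Has1, a hyaluronan synthase, was at least 6.68-fold higher in WAT (adjusted p = 6.4e-07, not well above background on any liver array), a call that ended under normexp (-0.90). Has2, another, was 18.8-fold higher in WAT (log2 -4.23 ± 0.57, well above background on 1 of 5 liver arrays). Tnfaip6, which transfers heavy chains onto hyaluronan, was at least 14.6-fold higher in WAT (adjusted p = 1.5e-08, not well above background on any liver array). Itih1, which encodes such a heavy chain, was 535-fold higher in liver (log2 9.06 ± 0.79).

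Cell cycle genes were higher in WAT for 18 of 25 (median -1.42). Aurkb, a mitotic kinase, was 16.6-fold higher in WAT (log2 -4.05 ± 0.27, well above background on 1 of 5 liver arrays). Nusap1, a spindle protein, was 6.69-fold higher in WAT (log2 -2.74 ± 0.21). Smooth muscle and pericyte genes had 7 of 14 higher in WAT, and 12 under reference-gene scaling, with Notch3, of vascular smooth muscle, 7.59-fold higher in WAT (log2 -2.92 ± 0.25).

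**Figure D4:**
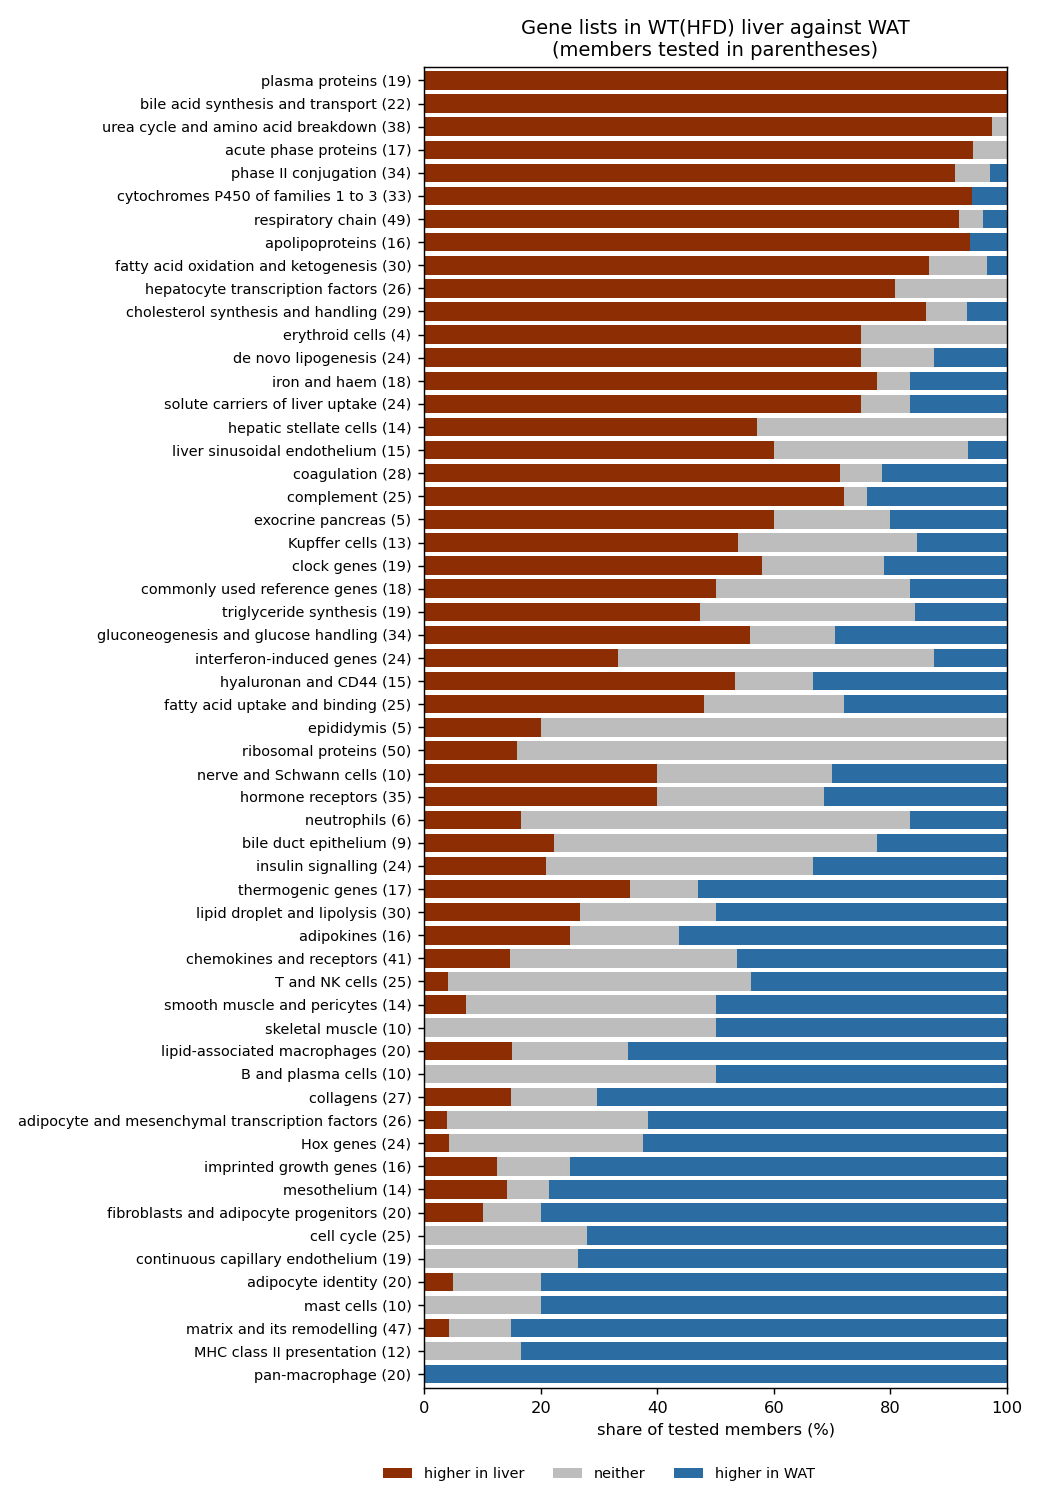
Share of tested members of 57 gene lists that were higher in liver (brown), in WAT (blue) or in neither (grey), ordered by the balance of calls; the number of tested members stands in parentheses. Plasma protein and bile acid genes were all higher in liver, pan-macrophage genes all in WAT, against 27.4% and 24.6% of all genes tested.

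The medians of several lists of liver genes differed between the WAT arrays in the same way. Relative to the mean of the liver arrays, the 19 plasma protein genes had median levels of -7.32, -6.52, -10.62, -7.67 and -9.37 log2 units on WAT arrays 1 to 5. The apolipoproteins higher in liver gave -8.59, -7.31, -11.32, -8.18 and -10.72, and the coagulation genes higher in liver -7.51, -7.60, -11.07, -8.04 and -10.31. In the median of each of these lists, though not in every member, WAT arrays 1, 2 and 4 lay above WAT arrays 3 and 5. Arrays 1 and 4 shared a slide and 2, 3 and 5 another, and whether the slide had a part in the split was not tested. On the 5 CD44KO WAT arrays the plasma protein median ranged from -9.28 to -6.49. The summed level of the plasma protein list was 88.4 to 164 on WAT arrays and 5613 to 7028 on liver arrays, in units of the 75th percentile, with no member at 0. The differences given above for liver genes are thus means over unequal WAT arrays, which sets their SE. Whether liver RNA on the WAT arrays had a part in these values was not tested.

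On the liver arrays, the 16 adipocyte genes higher in WAT had median levels of -5.13, -5.37, -5.71, -5.79 and -5.32 log2 units relative to the mean of the WAT arrays, a narrower range. On WAT replicate 1 the same genes lay at -0.70, below the other WAT arrays (0.05 to 0.29). Defining fat genes were at or near background on the liver arrays, Lep on all of them and Adipoq on all but replicate 2. The summed level of all 20 adipocyte genes was 544 to 732 on liver arrays, which includes Car3, and 763 to 1400.0 on WAT arrays.

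**Figure D5:**
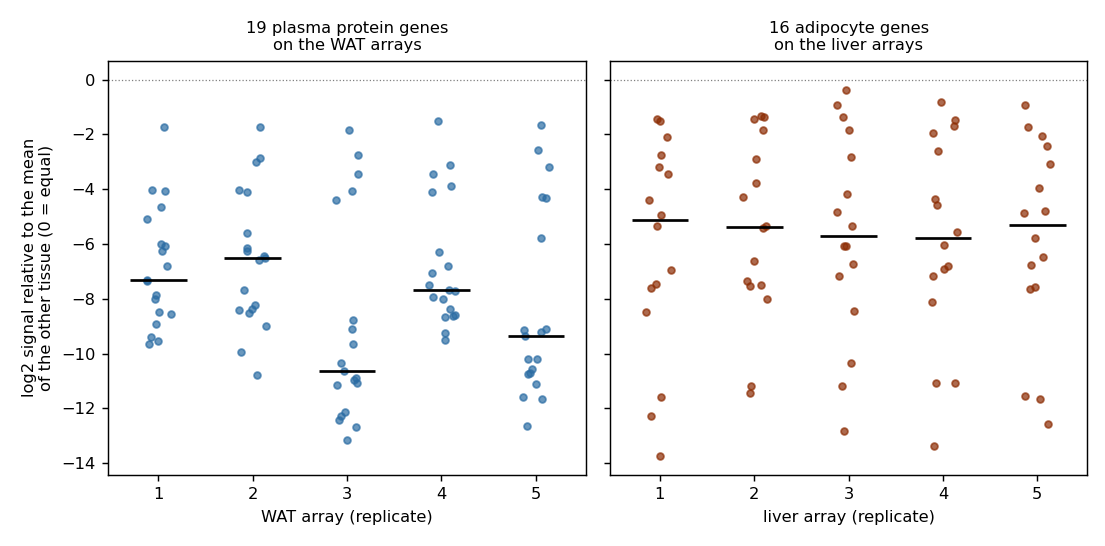
Left, 19 plasma protein genes on each WT(HFD) WAT array as log2 signal relative to their mean on liver arrays; right, 16 adipocyte genes on each WT(HFD) liver array relative to their mean on WAT arrays; points are genes, the horizontal line their median and 0 equal levels. The WAT medians lie between -10.62 and -6.52 with arrays 3 and 5 lowest, and the liver medians between -5.79 and -5.13.

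Markers of tissues that could adhere to the samples were counted as well. Skeletal muscle genes were higher in WAT for 5 of 10 tested members, among them Myl1, a myosin light chain, at least 87.4-fold higher in WAT (adjusted p = 1.3e-08, not well above background on any liver array), and Pvalb, parvalbumin of fast fibres, at least 9.53-fold higher in WAT (adjusted p = 2.9e-08, not well above background on any liver array). Their summed level was 5.21 to 7.86 in WAT and 1.02 to 1.53 in liver. Epididymal genes were tested for 5 of 12 members and 1 was higher in liver, against 5 without WAT replicate 1. They were dim, with a summed level of 0.37 to 0.58 in liver and 0.08 to 2.44 in WAT. The lowest level well above background was higher on liver arrays (-5.34 to -4.55) than on WAT replicates 2 to 5 (-6.58 to -5.91). Whether this difference had a part in the epididymal count was not tested. Exocrine pancreas genes were tested for 5 of 12, 3 higher in liver and 1 in WAT. Erythroid genes were higher in liver for 3 of 4, with Hba-a1, an alpha globin, 2.03-fold higher in liver (log2 1.02 ± 0.34), with overlapping arrays and a direction that turned to -0.22 under quantile normalisation. Nerve and Schwann cell genes had 4 of 10 higher in liver and 3 in WAT, with 2 and 4 under reference-gene scaling, and Pmp22, a myelin protein also of fibroblasts, was 26-fold higher in WAT (log2 -4.70 ± 0.17). Bile duct genes had 2 of 9 higher in liver and 2 in WAT, with 0 and 3 under reference-gene scaling.

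Genes with near equal levels were also found. For 1120 genes measured on all 10 arrays the 95% interval of the difference lay within 0.5 on the log2 scale. One was Rps14, a ribosomal protein, with 7.41 ± 0.10 in liver and 7.49 ± 0.26 in WAT (SD, n = 5 each) and an interval of -0.38 to 0.22. Rpl23a, another, had an interval of -0.21 to 0.29, and Hnrnpk, an RNA-binding protein, one of -0.38 to 0.22. Equality here holds for the percentile scale, since Rps14, Rpl23a and Hnrnpk differed by -1.87, -1.51 and -1.60 under quantile normalisation and by -0.74, -0.62 and -0.75 with reference-gene scaling. Of 50 ribosomal protein genes, 8 were higher in liver, with a median of 0.60 that turned to -0.06 with reference-gene scaling and -0.88 under quantile normalisation. Commonly used reference genes were not equal, 9 of 18 higher in liver and 3 in WAT, with a median of 0.98 that turned to -0.20 under quantile normalisation. Gapdh, of glycolysis, was 7.04-fold higher in liver (log2 2.82 ± 0.18), with levels of 7.60, 7.41, 7.47, 7.51 and 7.65 in liver and 4.23, 4.55, 5.28, 4.75 and 4.74 in WAT. Gusb, of the lysosome, was 4.21-fold higher in WAT (log2 -2.07 ± 0.19). Actb, beta-actin, named after its value was seen, differed by -0.33 ± 0.26 (adjusted p = 0.28) with overlapping arrays, but was called higher in WAT under quantile normalisation (-1.25).

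The same comparison was made in the 5 liver and 5 WAT arrays of CD44KO(HFD) mice, which the calls above did not use. CD44KO and WT arrays of a tissue shared the scan day and scanner, and most shared slides. Tissue and these batches therefore cannot be told apart here either, and the genes were those that passed the filter on WT arrays. Of 4279 genes higher in liver in WT, 3934 were called the same way and 1 the opposite way, and of 3845 genes higher in WAT, 3495 and 1. In CD44KO 5179 genes (33.1%) were higher in liver and 4060 (26%) in WAT. Across all tested genes the differences in WT and CD44KO correlated with r = 0.967, where genes are not independent replicates. The tissue difference itself differed between genotypes for 373 probes (1.32% of those tested by the limma interaction at an adjusted p under 0.05). Hk2 differed between tissues by -2.03 in WT and -4.86 in CD44KO (adjusted p = 0.0078), and Mogat2 by -3.14 and -6.10 (adjusted p = 0.008).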

How the data were processed

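Total RNA of liver and WAT (10 wild type and 10 CD44KO arrays, 5 per tissue and genotype) was labelled with Cy3 and hybridised to Agilent whole mouse genome arrays by the authors, who deposited scanner files of Agilent Feature Extraction 9.5, as the submitters' processing notes give it (9.5.3.1 in the file headers). The values used are the processed signal intensity of each spot as deposited, after the background subtraction of that software, in which dim signals are estimates. Intensities were log2 transformed, the 75th percentile of each array over 43379 non-control spots was subtracted, outlier spots were left out, and the remaining spots were averaged by probe. The tests used limma 3.58.1 (R 4.3.3) on the 10 wild type arrays, with Benjamini-Hochberg adjustment, for probes that 3 or more arrays of either tissue measured well above background. The precision is limited by 5 arrays per tissue, and since the labels do not tie arrays to mice, p-values measure the spread between arrays. The script was tested on simulated data.

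Of 41174 probes, 23079 were named through their accession, 6582 through their symbol and 3074 through a synonym in RefSeq, and 8439 kept the name in the file. The brightest probe stood for a gene. A bound ("at least") sets the mean of the bright tissue against the dimmest signals well above background in the other. The members and gene lists were chosen with earlier results of these data known. Genes were named by rule: defining markers, the 10 largest differences each way, the 10 highest measured in 1 tissue only, the pairs, up to 4 members per list and direction, members against their list, and the highest with narrow intervals. Cebpa, Actb, Marco, Timd4 and Vsig4 were added after their values were seen, and some genes of the lists and pairs are not reported here. Alternatives were normexp, quantile, median and reference-gene scaling, other filters, all 20 arrays, slide and replicate blocks, and leaving out each array.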

Additional observations from a re-analysis of the deposited data

Results flagged for a closer look

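In 41 of 467 groups of 5 arrays checked (named genes and array measures in each tissue), 1 array stood apart from the other 4, its gap to the nearest exceeding 0.71 of the range (Dixon's 95% limit). Chance alone does this in about 1 group in 20, and genes of 1 array are not independent. The number after each gene is that share of the range.

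WAT replicate 1 stood apart most often. It was the highest of the WAT arrays in the percentage of spots well above background (0.766). It was the lowest WAT array for C1qc (0.81), Cebpa (0.868), Crtac1 (0.787), Gys1 (0.813), Insr (0.878), Lep (0.808), Lpin1 (0.722), Mest (0.81), Npr3 (0.808), Phgdh (0.732), Plin1 (0.731), Scd2 (0.822), Slc1a5 (0.798), Sncg (0.806), Tmem182 (0.818) and Vldlr (0.727). It was the highest for Cxcl1 (0.816), Gipr (0.757), Lrat (0.854) and Slc22a29 (0.746). Among the other WAT arrays, replicate 2 was highest for Ccl11 (0.746), replicate 3 lowest for Cpt1b (0.713), and replicate 5 highest for Ccl8 (0.878) and lowest for Ctsk (0.872).

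Liver replicate 3 was the lowest liver array for Adgre1 (0.893), Apod (0.747), C1qa (0.743), C1qc (0.783), Cd5l (0.717), Hmox1 (0.753), Stab1 (0.759) and Thbd (0.825), several of which are genes of macrophages and sinusoidal endothelium, and the highest for Aqp9 (0.766). Liver replicate 1 was lowest for Alb (0.72), Gc (0.736) and Hoxc4 (0.781) and highest for H19 (0.78). Liver replicate 4 was lowest for Cavin1 (0.714) and Phgdh (0.805) and highest for Lpin1 (0.757).

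For 12 named genes the tissue difference itself differed between WT and CD44KO (limma interaction over all tested probes, WT minus CD44KO on the log2 scale). The lead of WAT over liver was smaller in WT than in CD44KO for Aqp7 (2.56, adjusted p = 0.035), Cavin1 (1.01, adjusted p = 0.05), Hk2 (2.83, adjusted p = 0.0078), Meox2 (1.06, adjusted p = 0.05), Mogat2 (2.96, adjusted p = 0.008), Notch3 (1.34, adjusted p = 0.029), Pfkfb3 (1.52, adjusted p = 0.042), Plat (1.27, adjusted p = 0.049), Rgcc (1.4, adjusted p = 0.029) and Slc1a5 (1.45, adjusted p = 0.038). It was larger in WT for Pi16 (-1.52, adjusted p = 0.029). Plin5, higher in liver, had the larger difference in WT (0.945, adjusted p = 0.041).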

How the results depend on the processing

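Of the main 6974 probes higher in liver and 6928 higher in WAT, the counts became 4076 and 10610 with reference-gene scaling, 3738 and 3699 at a minimum of 4-fold, and 4485 and 4535 when limma's treat tested against 2-fold, and normexp gave 3761 for WAT. Leaving out 1 array gave 6566 to 8545 for liver, the highest without WAT replicate 1, and 6670 to 6912 for WAT. Without WAT replicate 1, 97.3% of the liver calls and 94.4% of the WAT calls were made again, and a common floor, chosen after seeing the data, gave 6262 and 5760. Probes measured in liver only went from 90 to 738, and those in WAT only from 1865 to 3032, when at least 4 arrays of a tissue against at most 1 of the other counted. Leaving out 1 array gave 90 to 531 (531 without WAT replicate 1) and 1875 to 2046. The difference in the share of signal on the 100 brightest spots, 10.1 percentage points, ranged from 9.70 to 10.4, called list members numbered 905 without WAT replicate 1 against 890, and of the called probes 12310 were called the same way in CD44KO, 12142 to 12483 with 1 CD44KO array left out (the last 3 alternatives were also added after seeing the data). Deviations of same-numbered liver and WAT arrays correlated at -0.19 to 0.14, which cannot tell whether they came from the same mouse. With the replicate block 6694 and 6826 probes were called. Directions turned for Adrb3 under normexp (0.69) and, under quantile normalisation, for Plin2 (-0.30), Hba-a1 (-0.22) and Rpl23a (-1.51). Of the named genes' other values under an alternative, 38 lost a call, 11 gained one and 5005 kept direction and call. Among counts and medians of the gene lists, 151 moved under an alternative and 1046 stayed near the main value. The cause of these changes was not tested. Dim probes limit the folds, since the level below background is an estimate.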
